A study of Mus musculus with 8 samples.

Results

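The integrated stress response and the unfolded protein response were followed through 39 genes in mouse liver RNA. The genes were taken by name from a list of ATF4 targets and endoplasmic reticulum (ER) genes, and all 39 were found among the 49585 genes of the count table. They form an ATF4 arm of 19 genes (amino acid synthesis and transport, stress transcription factors and feedback genes) and an ER arm of 20 genes (the 3 ER stress sensors, Xbp1, chaperones, folding enzymes and degradation factors). RNA was sequenced from the livers of 8 male mice kept for 3 months on HFCD, a high-fat, choline-deficient diet started on day 21 of age. The LP245/+ livers (n = 3) were labelled Alb-CreTG, Trp53wm-R245W/+, in which Cre turns a wild-type Trp53 allele into one encoding p53 R245W. The LPfl/+ livers (n = 2) were labelled Alb-CreTG, Trp53fl/+, and lose 1 Trp53 allele. The LP+/+ livers (n = 3) were labelled Alb-Cre0, with an unrecombined Trp53fl/+ genotype in replicates 1 and 2 and Trp53wm-R245W/+ in replicate 3, so by the labels Cre was present only in the altered genotypes and the effects of Cre and of the Trp53 change cannot be told apart. The study's text instead describes LP+/+ mice as Alb-Cre carriers with unaltered Trp53, so the sources conflict on what the controls carry, and the labels are followed here. Alb-Cre acts in hepatocytes and cholangiocytes, and the other cells of these livers stay wild-type for Trp53.

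The unfolded protein response begins at sensors in the ER membrane, PERK (Eif2ak3), IRE1 (Ern1) and ATF6, which respond to misfolded proteins. PERK shares its substrate, the translation factor eIF2, with kinases that sense amino acid shortage, heme shortage and viral RNA, and phosphorylated eIF2 lowers general translation while the ATF4 message is translated more. ATF4 protein then drives genes for amino acid supply and stress adaptation, whereas spliced XBP1 and cleaved ATF6 drive chaperones and degradation factors. Hepatocytes secrete much of the plasma protein and carry a large ER, and lipid loading of the liver is a known setting for ER stress. Much of this signalling is translational or post-translational, and the RNA levels here do not measure it.

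The letters bound by these factors were searched in promoters, 250 bases before to 50 after the transcription start (RefSeq, GRCm38.p6), on both strands. Promoters were at hand for 35 of the 39 members. The ER stress element (CCAAT, any 9 bases, CCACG), bound by ATF6 with NF-Y, was found in 7 of 17 ER arm genes with a promoter, in 0 of 18 ATF4 arm genes and in 0.137% of all 27025 genes. The 7 genes are shown because they encode ER chaperones and folding factors, with the element in capitals. Hsp90b1 held it at 2 positions, of which the one nearer the start is given.
Hspa5 (chr2:34772020-34772048, + strand): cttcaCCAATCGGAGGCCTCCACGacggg
Hsp90b1 (chr10:86705528-86705556, - strand): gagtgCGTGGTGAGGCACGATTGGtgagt
Calr (chr8:84847070-84847098, - strand): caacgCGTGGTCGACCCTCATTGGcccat
Canx (chr11:50325795-50325823, - strand): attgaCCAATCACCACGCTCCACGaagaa
Pdia6 (chr12:17266486-17266514, + strand): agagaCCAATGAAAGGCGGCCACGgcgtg
Dnajc3 (chr14:118937822-118937850, + strand): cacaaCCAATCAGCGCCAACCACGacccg
Creld2 (chr15:88819515-88819543, + strand): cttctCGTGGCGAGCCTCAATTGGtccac

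The ATF4 composite element (TGATG, any base, AA) was found in 7 of the 18 ATF4 arm genes and in 4.51% of all genes. In the ER arm it was found in 1 gene, Herpud1. The letters TGACGTG of the unfolded protein response element were found in 1 member, Hspa5, and in 2.22% of all genes. The ATF4 element is shown, in capitals and on either strand, for Atf3, which had the largest log2 fold change of the ATF4 arm in LPfl/+ against LP+/+, and for Asns, Nupr1 and Vldlr, the members of that arm that varied most between livers of a genotype. Each of these matches lies inside the annotated span of its gene, and the Vldlr match belongs to a second start of that gene.
Asns (chr6:7693214-7693243, - strand): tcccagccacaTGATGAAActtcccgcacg
Atf3 (chr1:191183425-191183454, - strand): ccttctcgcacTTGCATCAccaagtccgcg
Nupr1 (chr7:126625562-126625591, - strand): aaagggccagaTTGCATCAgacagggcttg
Vldlr (chr19:27216809-27216838, + strand): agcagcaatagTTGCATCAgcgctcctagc

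The Herpud1 promoter is given for the 180 bases before its start, because Herpud1 had the largest fold change of the members. It carried the ATF4 element and also ER stress element II (ATTGG, any base, CCACG), and both are in capitals. The letters of element II were searched after the promoter had been seen. They were found in 2 of 17 ER arm genes, Herpud1 and Dnajb11, and in 0.0444% of all genes. A match is a description of the letters and says nothing of binding in these livers.
Herpud1 (chr8:94386249-94386428, + strand): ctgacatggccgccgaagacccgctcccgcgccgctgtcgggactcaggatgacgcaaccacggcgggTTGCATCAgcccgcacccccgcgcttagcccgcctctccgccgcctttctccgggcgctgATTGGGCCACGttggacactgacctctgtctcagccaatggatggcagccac

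The libraries held 26304526 to 31370714 counts each. The CPM (counts scaled to library size with TMM factors) of 7 hepatocyte markers summed to 102534 to 145410 over the livers, and that of 5 pancreatic acinar markers to at most 0.514, with Prss2 and Ctrb1 at 0 in every liver. Cdkn1a, the p53 target used to check the labels, was at 4.85 to 6.62 CPM in LP+/+, 2.65 and 3.53 in LPfl/+ and 0.514 to 0.966 in LP245/+. Trp53 itself was at 7.11 to 9.06, 4.48 and 6.28, and 6.80 to 11.2 CPM. The library numbers of the labels fall into 2 series: LP+/+ replicates 2 and 3 and the LP245/+ livers in the first, and LP+/+ replicate 1 and both LPfl/+ livers in the second. LP245/+ and LPfl/+ share no series, so in that comparison series and genotype cannot be told apart. Mitochondrial genome RNA was lower in LP+/+ (61017 to 69159 summed CPM) than in LPfl/+ (75269 and 96339) and LP245/+ (76910 to 103542), and its part in the results was not tested. In bulk liver RNA, fewer cells of a type and less RNA per cell cannot be told apart.

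Levels per exon length (RPKM, the CPM divided by kilobases of exon) were higher in the ER arm. The median member of the ER arm stood at 43.2 RPKM over the 8 livers and that of the ATF4 arm at 1.32 RPKM. Calr, a calcium-binding chaperone, was the most abundant member (332 RPKM), followed by Herpud1 (280 RPKM) and Hspa5, the chaperone BiP (265 RPKM). Sdf2l1 was the lowest of the 13 chaperones and folding enzymes (24.9 RPKM). In the ATF4 arm, Shmt2, the mitochondrial serine hydroxymethyltransferase, was highest (53.9 RPKM), then Atf5 (41.9 RPKM) and Atf4 (37.2 RPKM). The other enzymes of serine, asparagine and one-carbon synthesis were at or below the 1.32 RPKM of Psph. Phgdh, the first enzyme of serine synthesis, and Slc7a11, the cystine transporter, had at most 9 and 12 counts in a liver and did not pass the filter on low counts, which left 37 members to test.

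**Figure D1:**
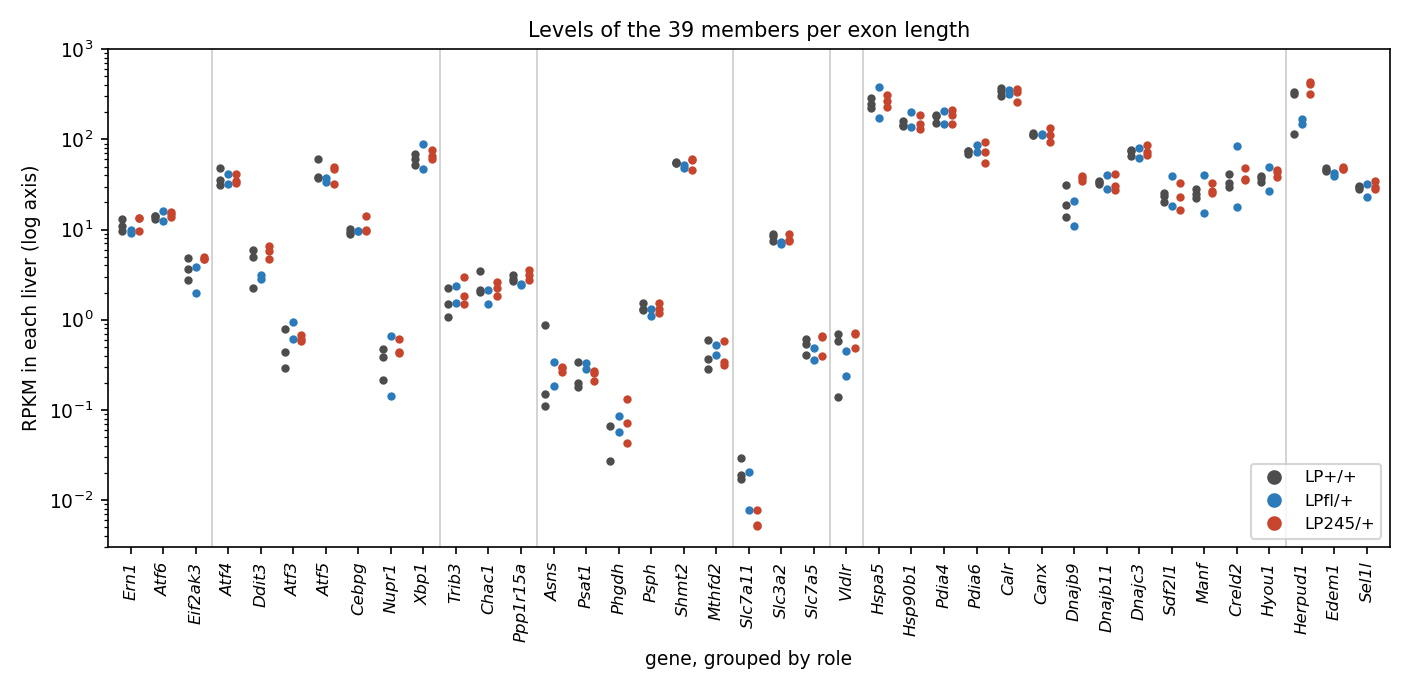
RPKM of the 39 members in each liver (points, log axis), grouped by role and coloured by genotype; the 0 of Phgdh in 1 LP+/+ liver is not drawn. The 13 chaperones and folding enzymes lie between 10.9 and 385 RPKM, while the median ATF4 arm member is at 1.32 RPKM.

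No member passed the cutoff (a log2 fold change of 1 or more in either direction with an adjusted p up to 0.05) in any comparison by edgeR's quasi-likelihood test with Benjamini-Hochberg adjustment over 16496 genes. In LP245/+ compared with LP+/+ 0 of 37 members and 0.00606% of all genes passed it. For LPfl/+ against LP+/+, and likewise for LP245/+ against LPfl/+, 0% of all genes did. At an unadjusted p under 0.05 there was 1 member in LP245/+ against LP+/+ (2.70% of members, 5.93% of all genes), Dnajb9. There were 0 members in LPfl/+ against LP+/+ (6.89% of all genes). In LP245/+ against LPfl/+ there were 4 members (10.8% of members, 8.51% of all genes), namely Herpud1, Dnajb9, Ddit3 and Eif2ak3, each higher in LP245/+, where 4.07% of all genes had such a p and were higher. DESeq2 also called 0 members in the 3 comparisons, with 2, 0 and 5 of the 39 members, and 2.7%, 3.13% and 4.1% of 30240 genes, at an unadjusted p under 0.05. Those 30240 genes include ones below the edgeR filter on low counts, so these shares and those of the 16496 genes are not like for like.

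The median of all genes was 0.00 on the log2 scale in each comparison, and the ER arm as a whole was close to it. The median log2 fold change of the ATF4 arm was 0.04 in LP245/+ against LP+/+ (9 of 17 members positive), -0.20 in LPfl/+ against LP+/+ (6 of 17) and 0.17 in LP245/+ against LPfl/+ (13 of 17). Liver by liver, against the mean of LP+/+, the median ATF4 arm member was at -0.03, -0.05 and -0.01 in LP+/+ replicates 1 to 3. It was at -0.24 and -0.07 in LPfl/+ and at 0.09, 0.13 and 0.22 in LP245/+. The median of all genes was at 0.00 to 0.02 in each liver. The LP+/+ livers were measured from their own mean, which pulls their medians toward it, so these values do not show the spread of the controls. The order of the genotypes was not tested. The ER arm stood at 0.08 (17 of 20 positive), 0.03 (11 of 20) and 0.03 (12 of 20). These comparisons share livers and are not independent of each other. In LP245/+ against LP+/+ the 95% interval lay within a log2 fold change of 1 in either direction for 17 of 20 members of the ER arm and 11 of 17 of the ATF4 arm. In LPfl/+ against LP+/+ that held for 16 and 8 members.

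**Figure D2:**
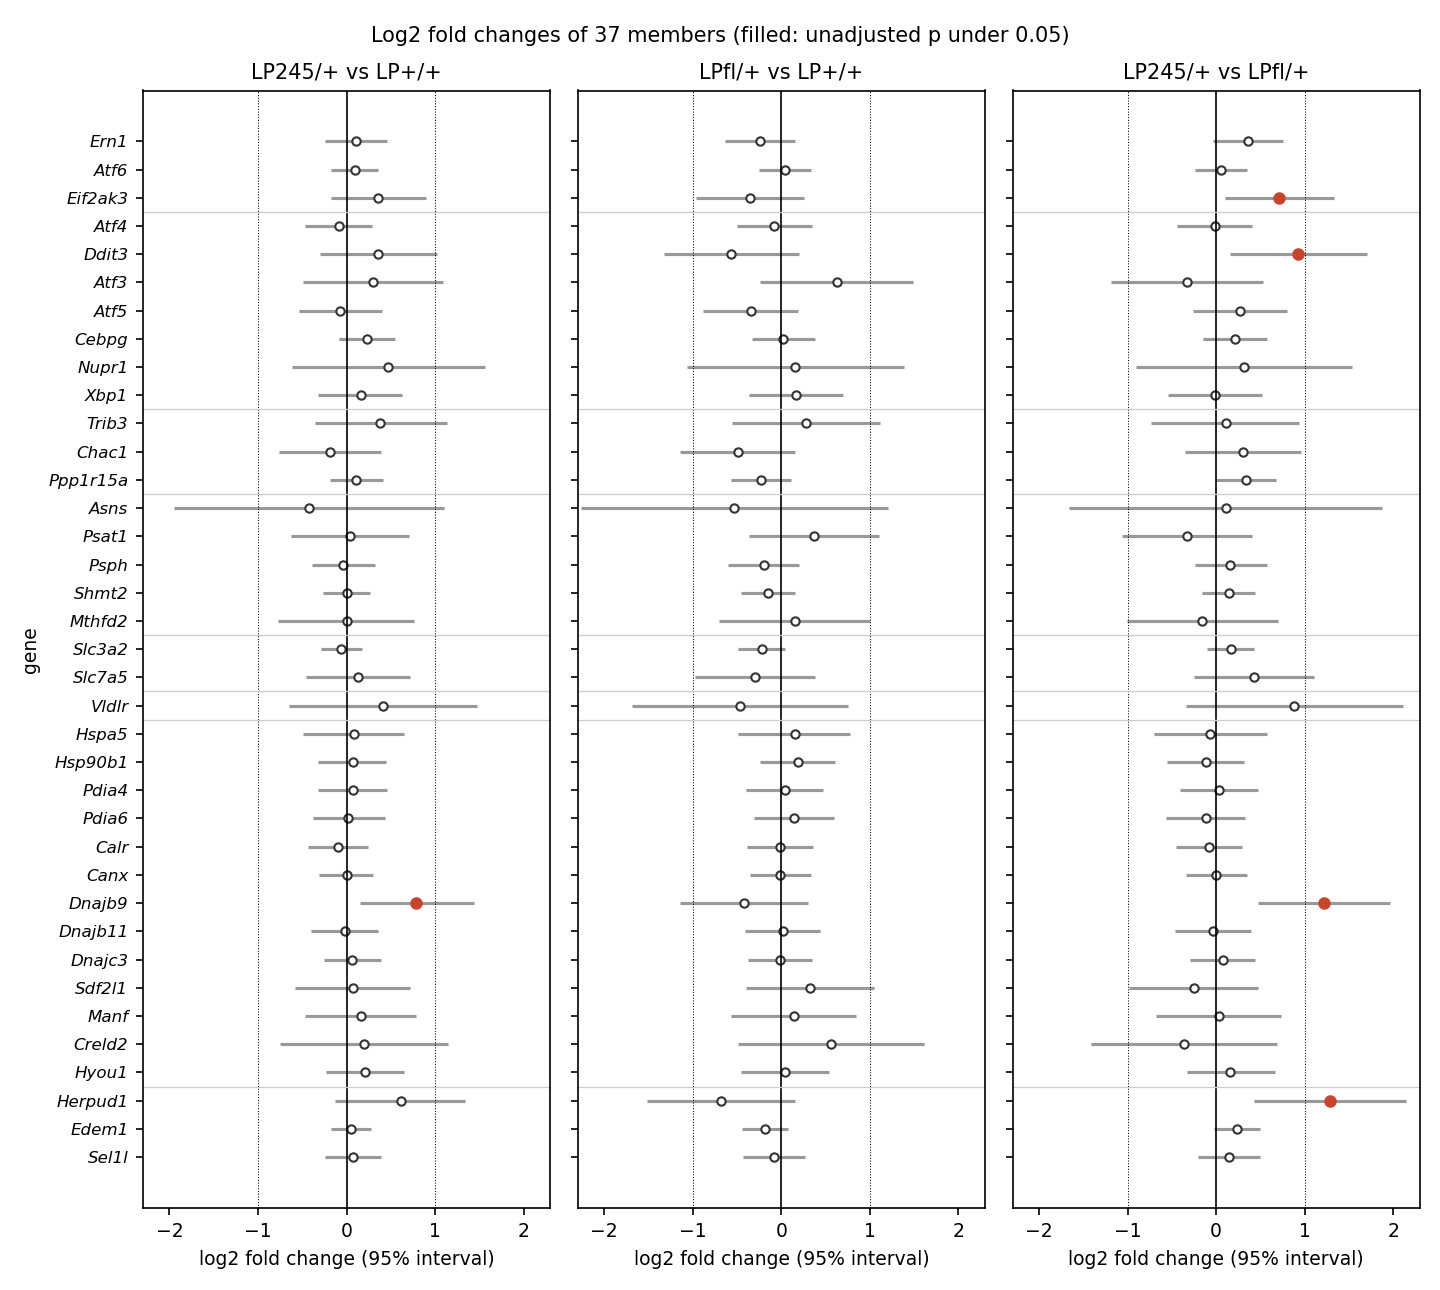
Log2 fold change (points) and 95% interval (lines) of 37 members in the 3 comparisons, ordered by role; dotted lines mark -1 and 1. The filled points are Dnajb9 against LP+/+ and Herpud1, Dnajb9, Ddit3 and Eif2ak3 in LP245/+ against LPfl/+, the members with an unadjusted p under 0.05.

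Of the sensors, Eif2ak3, which encodes PERK, differed most between livers. Eif2ak3 was at 16.8, 28.9 and 21.8 CPM in LP+/+ replicates 1 to 3, at 11.9 and 23.4 CPM in LPfl/+ replicates 1 and 2, and at 28.6, 30.2 and 28.1 CPM in LP245/+. The LP245/+ livers were close together and above both LPfl/+ livers, and overlapped LP+/+. The log2 fold change of Eif2ak3 was 0.36 ± 0.24 (standard error) against LP+/+ and 0.71 ± 0.28 against LPfl/+, where edgeR gave an unadjusted p of 0.0278 and an adjusted p of 0.532. That value of Eif2ak3 was 0.31 (edgeR unadjusted p 0.252) without LPfl/+ replicate 1 and 1.28 (p 0.00104) without LPfl/+ replicate 2. Ern1 (IRE1) was between 74.3 and 111 CPM and Atf6 between 114 and 148 CPM over the livers. Their log2 fold changes lay between -0.24 and 0.36, with no unadjusted p under 0.05.

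Atf4 RNA, the transcript of the central factor, differed little. Atf4 was at 114, 84.3 and 74.4 CPM in LP+/+, at 75.9 and 96.5 CPM in LPfl/+ and at 97.0, 77.4 and 82.0 CPM in LP245/+. The 3 genotypes overlapped, and the log2 fold changes were -0.09 (95% interval -0.47 to 0.29), -0.08 (-0.50 to 0.35) and -0.01 (-0.44 to 0.41) for LP245/+ against LP+/+, LPfl/+ against LP+/+ and LP245/+ against LPfl/+.

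Ddit3, which encodes CHOP, a factor downstream of ATF4 that promotes cell death in prolonged ER stress, was at 3.87, 10.1 and 8.54 CPM in LP+/+, at 5.30 and 4.86 CPM in LPfl/+ and at 7.97, 9.77 and 11.3 CPM in LP245/+. Each LP245/+ liver was above both LPfl/+ livers, but LP+/+ replicate 1 was the lowest of all 8. The log2 fold change of Ddit3 was 0.93 ± 0.34 for LP245/+ against LPfl/+ (edgeR unadjusted p 0.0228, adjusted p 0.513). Against LP+/+ it was 0.36 ± 0.30 in LP245/+ and -0.57 ± 0.34 in LPfl/+. Ddit3 overlaps Mars on the other strand, and since the strand used in counting is not given in the sources used here, its reads may not be separate from those of Mars. The same holds for Herpud1, Eif2ak3, Dnajb9, Hsp90b1, Manf, Pdia6, Atf3, Atf5, Cebpg, Ppp1r15a, Psat1, Psph, Shmt2, Slc7a5 and Slc7a11, each of which overlaps an annotated gene on the other strand.

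Atf3, an early stress factor, and Nupr1, a small stress-induced chromatin protein, were low and variable. Atf3 was at 0.951, 1.68 and 0.629 CPM in LP+/+, at 1.32 and 2.03 CPM in LPfl/+ and at 1.25, 1.44 and 1.32 CPM in LP245/+. Its largest log2 fold change was 0.63 ± 0.39 in LPfl/+ against LP+/+ (edgeR unadjusted p 0.137). Nupr1 was at 0.543, 1.18 and 0.960 CPM in LP+/+, at 0.358 and 1.64 CPM in LPfl/+ and at 1.10, 1.08 and 1.54 CPM in LP245/+. The 2 LPfl/+ livers held the lowest and the highest Nupr1 value, and the log2 fold change of LP245/+ against LP+/+ was 0.47 ± 0.49.

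Xbp1, whose spliced message encodes the factor of the IRE1 branch, was at 222, 198 and 169 CPM in LP+/+, at 153 and 288 CPM in LPfl/+ and at 212, 198 and 247 CPM in LP245/+. Gene counts do not separate its spliced and unspliced forms. Again 1 LPfl/+ liver was the lowest and the other the highest for Xbp1, and no comparison had a log2 fold change beyond 0.17 in either direction. Atf5 (64.3 to 120 CPM) and Cebpg (50.6 to 79.0 CPM), bZIP factors that act with ATF4, had overlapping genotypes, with LP+/+ replicate 1 highest for Atf5 and LP245/+ replicate 3 highest for Cebpg.

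Among the feedback genes, Trib3, a pseudokinase that restrains ATF4 and AKT, ranged from 2.28 to 6.37 CPM. Chac1, which degrades glutathione, ranged from 2.43 to 5.69 CPM, and Ppp1r15a (GADD34), which returns eIF2 to its unphosphorylated state, from 7.14 to 10.4 CPM. The genotypes overlapped for Trib3 and Chac1. For Ppp1r15a both LPfl/+ livers were below the other 6, with log2 fold changes of -0.23 ± 0.15 against LP+/+ and 0.34 ± 0.15 for LP245/+ against LPfl/+ (edgeR unadjusted p 0.0513, adjusted p 0.583).

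In amino acid and one-carbon synthesis, Asns, the asparagine synthetase, had the widest spread of any member (within-genotype SD of 0.98 on the log2 scale, percentile 98.1 of all genes tested). Asns was at 2.41 CPM in LP+/+ replicate 1, 71 counts, and between 0.298 and 0.928 CPM in the other 7 livers. It was singled out after its values were seen. Psat1 (0.761 to 1.43 CPM), Psph (4.73 to 6.62 CPM), Shmt2 (144 to 188 CPM) and Mthfd2 (0.993 to 2.07 CPM) had log2 fold changes from -0.33 to 0.37, with no unadjusted p under 0.05. The counts of Phgdh, below the filter, were 2, 0 and 5 for the LP+/+ livers, 4 and 6 for the LPfl/+ livers and 9, 3 and 5 for the LP245/+ livers.

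The amino acid transporter subunit Slc3a2 was steady over the livers (24.2 to 31.4 CPM, within-genotype SD 0.12), and its partner Slc7a5 was at 1.32 to 2.44 CPM. The counts of Slc7a11, below the filter, were 7, 12 and 8 for the LP+/+ livers, 8 and 3 for the LPfl/+ livers and 2, 3 and 2 for the LP245/+ livers. When no filter was used, its log2 fold change in LP245/+ against LP+/+ was -1.79 ± 0.70, with an edgeR unadjusted p of 0.0165 and adjusted p of 0.771. The LP245/+ counts were at or below 3, the floor of detection, so no bound was set on this change. Vldlr, the very low density lipoprotein receptor through which PERK and ATF4 act on hepatic lipid uptake, was at 1.39, 5.83 and 7.08 CPM in LP+/+, at 4.48 and 2.39 CPM in LPfl/+ and at 4.88, 6.97 and 7.16 CPM in LP245/+. Each LP245/+ liver was above both LPfl/+ livers, and LP+/+ replicate 1 was the lowest of all. The log2 fold changes of Vldlr were 0.41 ± 0.47, -0.47 ± 0.55 and 0.88 ± 0.55 in LP245/+ against LP+/+, LPfl/+ against LP+/+ and LP245/+ against LPfl/+, with edgeR unadjusted p of 0.408, 0.406 and 0.139.

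Hspa5 (BiP), the main ER chaperone and the one that holds the sensors inactive, was at 1033, 1227 and 947 CPM in LP+/+, at 739 and 1630 CPM in LPfl/+ and at 956, 1133 and 1303 CPM in LP245/+. The LP245/+ and LP+/+ livers overlapped, and 1 LPfl/+ liver was the lowest and the other the highest of the 8. For LP245/+ against LP+/+ the log2 fold change of 0.08 had a 95% interval from -0.49 to 0.65. The other folding genes differed as little between these genotypes. Hsp90b1 (GRP94), Pdia4, Pdia6, Calr, Canx, Dnajb11, Dnajc3, Sdf2l1, Manf, Creld2 and Hyou1 had log2 fold changes between -0.10 and 0.21 in LP245/+ against LP+/+. In LPfl/+ against LP+/+ these 11 genes lay between -0.02 and 0.56, the last for Creld2 with a standard error of 0.47.

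Dnajb9 (ERdj4), a BiP co-chaperone that restrains IRE1 and aids degradation, stood apart from the other chaperones. Dnajb9 was at 35.2, 78.6 and 48.2 CPM in LP+/+, at 27.9 and 52.6 CPM in LPfl/+ and at 94.2, 88.0 and 98.9 CPM in LP245/+. Each LP245/+ liver was above each liver of the other genotypes. The log2 fold change of Dnajb9 was 0.79 ± 0.29, or 1.73-fold, against LP+/+ (edgeR unadjusted p 0.0205, adjusted p 0.795). This log2 fold change of Dnajb9 was 0.56 without LP+/+ replicate 1 (edgeR unadjusted p 0.0533), and the p was also above 0.05 without LP+/+ replicate 3 (0.066) or LP245/+ replicate 3 (0.062). Against LPfl/+ it was 1.22 ± 0.33, or 2.33-fold (edgeR unadjusted p 0.00463, adjusted p 0.376). An exact 2-sided permutation of the 3 LP245/+ and 3 LP+/+ livers gave p = 0.1 for Dnajb9, the smallest value 3 against 3 allows. For Herpud1 the exact p was 0.2, and for Atf4, Ddit3, Hspa5, Xbp1, Nupr1, Atf3 and Eif2ak3 it was between 0.3 and 0.8.

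Herpud1, a stress-inducible membrane protein of ER-associated degradation, was at 266, 773 and 739 CPM in LP+/+, at 397 and 342 CPM in LPfl/+ and at 1010, 745 and 951 CPM in LP245/+. Both LPfl/+ livers and LP+/+ replicate 1 were below the other 5. The log2 fold change of Herpud1 was 1.29 ± 0.38, or 2.44-fold, in LP245/+ against LPfl/+ (edgeR unadjusted p 0.00764, adjusted p 0.407), 0.61 ± 0.33 in LP245/+ against LP+/+ and -0.68 ± 0.38 in LPfl/+ against LP+/+. Its side of the cutoff depended on LP+/+ replicate 1. Without that liver the adjusted p was 0.00841 in LP245/+ against LPfl/+, among 0.288% of genes past the cutoff, and 0.0380 in LPfl/+ against LP+/+ at a log2 fold change of -1.03, among 0.362%. The other degradation genes, Edem1, which recognises trimmed glycans, and Sel1l, the HRD1 adaptor, were at 250 to 322 and 198 to 294 CPM. Edem1 was among the steadiest genes of the liver (within-genotype SD 0.07, percentile 3.58).

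**Figure D3:**
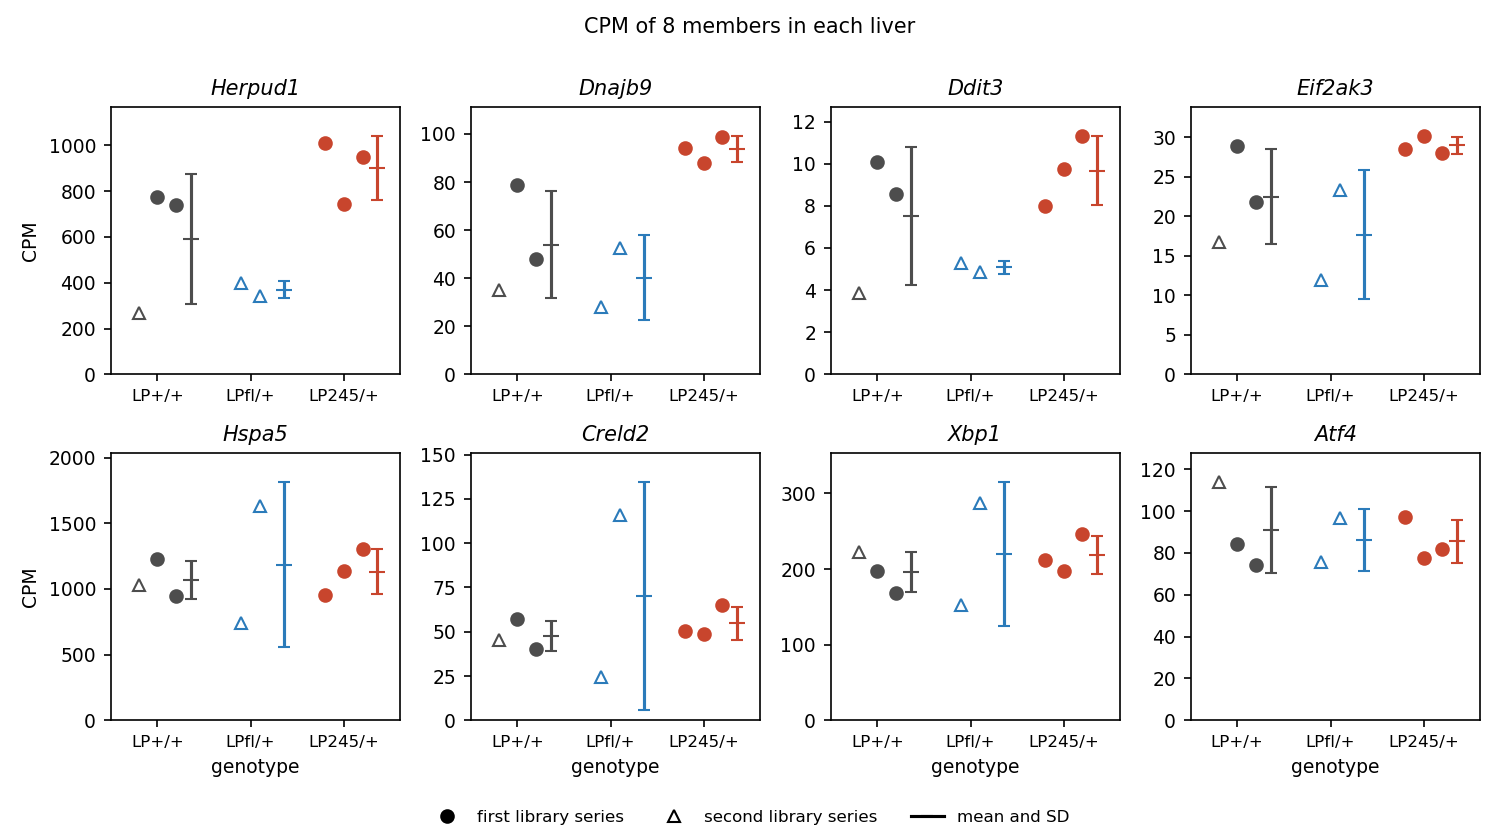
CPM of 8 members in each liver by genotype; circles are the first and triangles the second library series, and the bar beside them is the mean with its SD. The 3 triangles lie below the 5 circles for Herpud1 and Ddit3, and the 2 LPfl/+ livers are at opposite ends for Hspa5, Creld2 and Xbp1.

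The low values of Herpud1 followed the library series, and the lowest was in a control liver of the second series, LP+/+ replicate 1 (266 CPM). In 3 of 37 members (Ddit3, Herpud1 and Vldlr) each of the 3 livers of the second series was below each of the 5 of the first, an order seen in 4.54% of all genes. The opposite order was seen in 1 member, Psat1, and in 5.08% of all genes. Herpud1 averaged 843 ± 127 CPM (SD, n = 5) in the first series and 335 ± 65.9 CPM (SD, n = 3) in the second. Within the first series the log2 ratio of LP245/+ to LP+/+ was 0.25 for Herpud1, 0.56 for Dnajb9, 0.05 for Ddit3 and 0.19 for Eif2ak3. Within the second series the ratio of LPfl/+ to the single LP+/+ liver was 0.48 for Herpud1, 0.19 for Dnajb9, 0.39 for Ddit3 and 0.07 for Eif2ak3. With the series as a covariate the log2 fold changes of LP245/+ against LPfl/+ were -0.22 ± 0.26 for Herpud1, 0.37 ± 0.43 for Dnajb9, -0.34 ± 0.31 for Ddit3 and 0.12 ± 0.39 for Eif2ak3, and none had an unadjusted edgeR p under 0.05. That fit ties the series together through LP+/+ replicate 1 alone, and in it Asns, high in that liver, reached 2.87 ± 0.59 with an edgeR adjusted p of 0.187.

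Genes of the circadian clock were measured beside these. At an unadjusted edgeR p under 0.05 there were 9 of 12 clock genes in LP245/+ against LP+/+, 0 in LPfl/+ against LP+/+ and 10 in LP245/+ against LPfl/+. The shares of all genes were 5.93%, 6.89% and 8.51%. None of the 12 passed the cutoff, with a lowest edgeR adjusted p of 0.795 in LP245/+ against LP+/+ and 0.362 in LP245/+ against LPfl/+. Of the 12, Nr1d1, Dbp, Tef and Per2 were lower in the second series without overlap, and Arntl, Npas2, Clock and Cry1 were higher. Over all genes these orders were seen in 4.54% and 5.08%. Dbp was at 0.815, 7.75 and 3.57 CPM in LP+/+, at 2.29 and 1.82 CPM in LPfl/+ and at 23.7, 9.48 and 18.6 CPM in LP245/+. Within the first series the log2 ratio of LP245/+ to LP+/+ was 1.61 for Dbp, with no overlap between those livers. The part of the clock, or of the time of collection, in the values of Herpud1, Dnajb9, Ddit3 and Eif2ak3 was not tested.

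Levels of the ER arm differed between the livers of a genotype. LPfl/+ replicate 1 had the lowest value of all 8 livers for 13 of 20 members of the ER arm (65%) and for 11.4% of all genes. LPfl/+ replicate 2 had the highest value for 8 of 20 (40%) and for 12.9% of all genes. In 7 of 37 members (Nupr1, Hspa5, Xbp1, Manf, Creld2, Hyou1 and Atf6) replicate 1 was the lowest and replicate 2 the highest liver of all, an order present in 1.32% of all genes and looked for after it was seen. Creld2, an ER-stress-inducible folding factor, was at 24.5 and 116 CPM in LPfl/+ replicates 1 and 2, a 4.73-fold difference, against 40.4 to 65.3 CPM in the other 6 livers. Manf, a secreted ER stress protein, was at 54.1 and 141 CPM, and Sdf2l1, another stress-induced ER protein, differed 2.19-fold between them. The mean of LPfl/+ for these genes thus joins a low and a high liver.

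Against the mean of LP+/+, the median member of the ER arm was at -0.32 on the log2 scale in LPfl/+ replicate 1 and at 0.24 in replicate 2. The LP245/+ livers also differed, with medians of 0.01, 0.07 and 0.31. LP245/+ replicate 1 was the lowest liver for 6 of the 13 chaperones and folding enzymes, and replicate 3 the highest for 6. Over all genes LP245/+ replicate 1 was lowest for 13.2%, and replicate 3 was highest for 16.1% and lowest for 17.1%. The 7 genes with the ER stress element had LPfl/+ replicate 2 highest for 3 and LP245/+ replicate 3 for 3, and LP245/+ replicate 1 lowest for 4 and LPfl/+ replicate 1 for 3. Of the 10 genes with a promoter but without the element, LPfl/+ replicate 1 was lowest for 7 and LPfl/+ replicate 2 highest for 2. Over all genes these shares were 11.4% and 12.9%. Markers of plasma cells, which are rich in ER chaperones, were at 11.4 and 14.2 summed CPM in LPfl/+ replicates 1 and 2 and at 14.0 to 28.4 CPM in LP+/+. In LP245/+ replicates 1 to 3 they were at 21.5, 10.1 and 42.2 CPM. The highest sum was thus in LP245/+ replicate 3, the liver with the highest ER arm median. Not every marker followed the sum. Jchain was highest in that liver (4.83 CPM), while Mzb1 was at 0.143 CPM there and at 0.101 to 0.331 CPM in LP+/+. The part of plasma cells in the ER arm median was not tested. The acinar markers, of another chaperone-rich cell type, summed to 0.322 and 0.143 CPM in the LPfl/+ livers and to 0.0716 CPM in LP245/+ replicate 3.

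**Figure D4:**
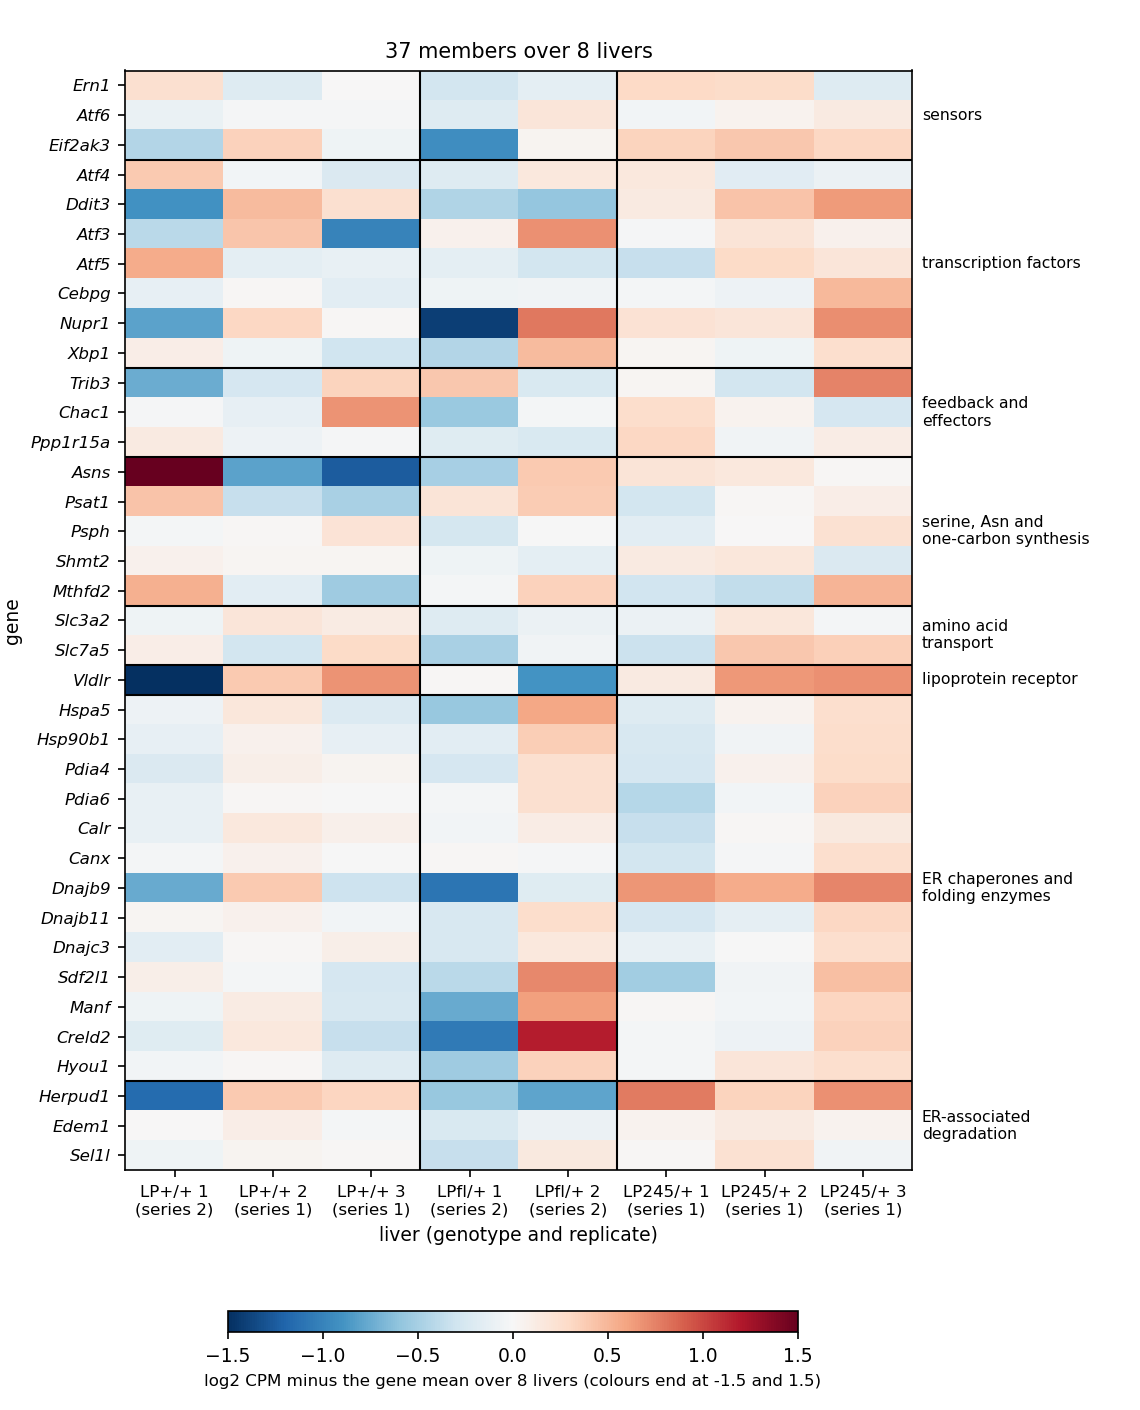
Log2 CPM of 37 members (rows, by role) in each liver (columns), relative to the gene's mean over the 8 livers; red is higher and blue lower, and colours end at -1.5 and 1.5. The chaperone block is mostly blue in LPfl/+ replicate 1 and red in LPfl/+ replicate 2 and LP245/+ replicate 3, and Dnajb9 is red in the 3 LP245/+ livers.

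Further genes of the pathways were taken from lists of names. Of 39 other ATF4 or eIF2 pathway genes 38 were tested, and of these 3, 2 and 3 had an unadjusted p under 0.05 in LP245/+ against LP+/+, LPfl/+ against LP+/+ and LP245/+ against LPfl/+ (7.89%, 5.26% and 7.89%). Of 40 other genes of ER folding, translocation and degradation the numbers were 0, 1 and 3 (0%, 2.5% and 7.5%), and none of either list passed the cutoff. These shares are near those of all genes (5.93%, 6.89% and 8.51%), so the counts are no result about the lists, and the genes below are given as values. Fgf21, a hepatokine under ATF4 and PPARalpha, had the smallest p in each comparison of the first list. Fgf21 was at 4.14, 4.11 and 4.43 CPM in LP+/+, at 2.61 and 2.43 CPM in LPfl/+ and at 8.08, 6.75 and 7.62 CPM in LP245/+. The genotypes did not overlap, and the log2 fold changes were 0.82 ± 0.15 in LP245/+ against LP+/+ and -0.75 ± 0.17 in LPfl/+ against LP+/+, with edgeR adjusted p of 0.795 and 0.697. In LP245/+ against LPfl/+ the log2 fold change of Fgf21 was 1.57 ± 0.17, with an edgeR adjusted p of 0.0818. Within the first series the log2 ratio of Fgf21 in LP245/+ to LP+/+ was 0.81. Within the second series that of LPfl/+ to LP+/+ was -0.72 and rested on a single LP+/+ liver.

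Slc1a4, a neutral amino acid transporter, was lower in LP245/+ than in LP+/+ (-0.59 ± 0.23 on the log2 scale, edgeR unadjusted p 0.0299), and Slc6a9, a glycine transporter, higher (0.30 ± 0.13, p 0.0413). Ppp1r15b, the constitutive counterpart of GADD34 in the dephosphorylation of eIF2, was at -0.25 ± 0.11 in LPfl/+ against LP+/+. In LP245/+ against LPfl/+, Ppp1r15b (0.30 ± 0.11), Iars (0.33 ± 0.10), Txndc11 (0.69 ± 0.17) and Creb3l2 (0.77 ± 0.21) had positive log2 fold changes, with edgeR adjusted p from 0.362 to 0.519. Nucb2, a calcium-binding protein, was at -1.13 ± 0.44 in that comparison. It stood at 13.0 CPM in LPfl/+ replicate 2 and at 3.11 to 5.74 CPM in the other 7 livers. Txndc11 was lower in the second library series without overlap, an order seen in 4.54% of all genes. Within the first series the log2 ratios of LP245/+ to LP+/+ were 0.22 (Txndc11), 0.32 (Creb3l2), 0.15 (Iars) and 0.10 (Ppp1r15b). Within the second series those of LPfl/+ to the single LP+/+ liver were -0.13, -0.30, -0.30 and -0.35.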

How the data were processed

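Per the labels and the study's methods, the authors made stranded total RNA libraries, aligned 76-bp paired reads to GRCm38 with STAR and deposited raw read counts per gene on a GENCODE annotation, whose release and counted strand are not given in the sources used here. Symbols, positions and exon lengths came from GENCODE M21 on GRCm38 (49326 of 49585 identifiers matched). The members and lists were chosen with earlier results of these data known.

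All 8 livers were fitted together with edgeR 4.0.16 (TMM, filterByExpr, quasi-likelihood test) under R 4.3.3, and p-values were adjusted over 16496 genes by the Benjamini-Hochberg method. Intervals used the fit's degrees of freedom. On data simulated for LP245/+ against LP+/+, 200 of 200 genes changed 4-fold were recovered with 5 false calls among 16161. The simulation gave every gene the same spread between livers and no series effect, and changed only genes above a floor of counts. It does not show what would be recovered for members with low counts, wider spread or changes below 4-fold. Members described in every liver were Atf4, Ddit3, Hspa5, Xbp1, those with an unadjusted p under 0.05 and the 3 with the largest change in each comparison. Others singled out for their values were chosen after these were seen. RPKM was CPM per kb of exon. No pair of libraries was alike within counting noise. Nothing in the labels says more of the replicates than that they are separate samples. The alternatives were DESeq2 1.42.0, its size factors, no filter, a floor of 10 counts per liver, a fit of the 2 genotypes compared, no fold-change cutoff, a replicate block, the library series, and each liver left out.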

Additional observations from a re-analysis of the deposited data

How the results depend on the processing

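With 2 or 3 livers a genotype and a within-genotype SD of up to 0.98 on the log2 scale, modest changes of the low ATF4 targets could not be resolved, and the count of 0 members past the cutoff leaves changes within the intervals given. It held for LP245/+ against LP+/+ under all 16 alternatives. In LP245/+ against LPfl/+ it became 2 without a filter (Herpud1 and Dnajb9, adjusted p 0.0145 and 0.00668, among 122 of 30240 genes) and 1 with only the 2 genotypes (Herpud1, adjusted p 0.0222), and 0 to 1 when livers were left out. In LPfl/+ against LP+/+ it was 0 to 1. Herpud1 made both calls when LP+/+ replicate 1 was left out. The cause was not tested.

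Members with an unadjusted p under 0.05 in LP245/+ against LP+/+ were 2 with DESeq2 and 3 without a filter (4.82% of all genes). Shares given for fits without a filter include the genes of low counts. Slc7a11, lower in LP245/+, joined Dnajb9 with DESeq2 (p 0.046). Without a filter, Slc7a11 (edgeR p 0.0165) and Herpud1 joined Dnajb9. The members at such a p were 0 to 4 with livers left out (0 without LP+/+ replicate 3 or LP245/+ replicate 3, 4 without LP+/+ replicate 2, where 5.82%, 7.76% and 5.62% of all genes had such a p). With the series covariate (6.65% of all genes) or without LP+/+ replicate 1 (6.7%) the 1 member was Asns, and Dnajb9 was lost (0.56, p 0.0531 and 0.0533). In LPfl/+ against LP+/+ they were 2 without a filter (5.38% of all genes), 5 with the series as a covariate (5.37%) and 0 to 7 with livers left out (6 without LP+/+ replicate 1, 6 without LPfl/+ replicate 1, 7 without LPfl/+ replicate 2, against 11.7%, 5.62% and 5.23% of all genes), where the lone LPfl/+ liver is assumed to vary like the other groups. In LP245/+ against LPfl/+ they were 3 to 10 with livers left out, 10 without LPfl/+ replicate 2 (6.6% of all genes). With the series covariate there were 4 (5.27%), Asns, Atf5, Vldlr and Ern1, and 0 of Herpud1, Dnajb9, Ddit3 and Eif2ak3. The median of the ATF4 arm was 0.16 with the series covariate and -0.02 to 0.16 with livers left out in LP245/+ against LP+/+, -0.13 with the covariate and -0.25 to -0.09 in LPfl/+ against LP+/+, and 0.09 to 0.23 in LP245/+ against LPfl/+. That of the ER arm was 0.03 to 0.18, -0.34 to 0.22 and -0.17 to 0.42, its ends in the last 2 comparisons set by the LPfl/+ livers.

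With the series covariate 9, 11 and 15 of 37 members changed sign in LP245/+ against LP+/+, LPfl/+ against LP+/+ and LP245/+ against LPfl/+. Of the 9 members given in full these were Atf4 (0.11) in the first, Herpud1 (0.48), Ddit3 (0.39), Dnajb9 (0.19), Eif2ak3 (0.07) and Xbp1 (-0.01) in the second, and Herpud1 (-0.22), Ddit3 (-0.34), Nupr1 (-0.66), Xbp1 (0.27) and Atf4 (0.51) in the third. Vldlr turned to 1.30 in the second and -1.33 in the third. Without LPfl/+ replicate 2, 14 and 13 members changed sign in the second and in the third, among them Hspa5 (-0.55), Nupr1 (-1.33) and Xbp1 (-0.37), and Hspa5 (0.62), Xbp1 (0.52), Atf4 (0.18) and Atf3 (0.02). With livers left out, these values ranged from -1.03 to -0.46 (Herpud1), -0.55 to 0.60 (Hspa5) and -1.33 to 0.86 (Nupr1) in LPfl/+ against LP+/+, and from -0.53 to 0.62 (Hspa5) and -0.39 to 0.52 (Xbp1) in LP245/+ against LPfl/+.

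The replicate numbers did not pair the livers (correlations of same-numbered livers -0.082 to 0.034). A replicate block gave 2, 0 and 5 members with an unadjusted p under 0.05 (5.36%, 6% and 7.25% of all genes), 0 past the cutoff, and a median of -0.13 for the ATF4 arm in LPfl/+ against LP+/+.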
